A study of Mus musculus with 20 samples.

Results

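Interleukins are secreted proteins through which blood and immune cells signal to each other, and each acts on cells that carry its receptor. Most of the receptors belong to families that share a signalling chain: the common gamma chain serves the receptors for IL-2, IL-4, IL-9, IL-15 and IL-21, gp130 serves those for IL-6 and IL-11, and members of the IL-1 receptor family signal through an intracellular domain shared with Toll-like receptors. In fetal liver, progenitors that go on to mast cells, basophils, eosinophils, monocytes or dendritic cells differ in the interleukin receptors they carry, and GATA2 is a zinc finger transcription factor of such progenitors. Levels of the interleukin genes and of their receptor genes are described here across RNA-seq libraries in which Gata2 was lowered by deletion of its distal enhancer and supplied again from a vector.

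The genes were all protein-coding genes whose mouse symbol starts with Il and a digit, leaving out Il1b, Il3ra, Il4, Il5ra, Il6, Il7r, Il13 and Il17rb. They numbered 74 of the 53379 gene identifiers in the files, with 34 interleukins, 37 receptor genes and 3 inhibitors or other proteins. Of the 74 genes, 43 had enough counts to be tested, 31 did not, and 7 of these had no count in any library. The 29 genes with a mean of at least 1 TPM (a transcript level that is scaled for transcript length and for library size) in some group are reported one by one, and all 29 were tested. These 29 were 5 interleukins, 22 receptor genes and 2 inhibitors.

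The cells were progenitors without mature lineage markers from mouse fetal liver, infected with a retroviral vector and cultured for 3 days. The 5 groups had 4 libraries each: wild-type cells with a control vector (empty vector), and cells from mice without the -77 enhancer of Gata2 (enhancer-null cells) with the empty vector, with a Gata2 vector, or with a vector for the GATA2 mutant R307W or T354M. For the first 3 groups the labels give the age E14.5 (embryonic day), the strain C57BL/6J and a medium with conditioned medium of IL-3 and SCF. The records of R307W and T354M libraries give the cell type, vector and 3 days of culture but not the age, strain or medium, so that a difference in handling cannot be told apart from a difference between the variants and the other groups. The labels used here do not say whether infected cells were selected, nor that the replicates are independent cultures or animals, and the p-values measure no more than the spread between these libraries. Below, "with GATA2", "with R307W" and "with T354M" refer to enhancer-null cells with that vector, and replicates are numbered as in the labels.

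Libraries held 22330475 to 33245876 expected counts. Gata2 measured 10.1 to 17.1 TPM in wild-type, 1.57 to 2.38 in enhancer-null, 21.4 to 48.2 with GATA2, 17.0 to 37.8 with R307W and 20.8 to 44.7 with T354M, in counts that pool the vector's transcript with the cell's own. All 6 progenitor markers (Kit, Cd34, Myb, Spi1, Ptprc and Flt3) were at 1 TPM or more on average in every group, while all 5 T cell and all 4 B cell markers were under 1 TPM in every group. Markers of mature myeloid cells moved strongly with the groups. The 9 mast cell and basophil markers summed to 442 to 645 TPM in wild-type and 29.1 to 37.9 in enhancer-null libraries, 1050 to 3150 with GATA2, 301 to 655 with R307W and 296 to 938 with T354M. The 6 eosinophil markers summed to 650 to 1080, 14.2 to 22.6, 2110 to 3760, 1610 to 3850 and 1060 to 5690 TPM in the same order. The 6 monocyte and macrophage markers summed to 178 to 350, 675 to 890, 170 to 496, 223 to 515 and 213 to 641 TPM. Replicate 4 had the lowest monocyte and macrophage sum and the highest mast cell and basophil sum of its group with each vector. In such mixtures more cells of a type and more RNA per cell cannot be told apart, and the part of these shifts in the results below was not tested.

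In wild-type cells Il1rl1, the receptor chain for IL-33, had the highest level of the 29 genes, at 40.0 ± 7.96 TPM (mean ± SD, n = 4), followed by Il18rap at 22.1 ± 4.22 and Il17ra at 19.2 ± 3.74. In enhancer-null cells Il17ra was highest at 40.0 ± 5.52 TPM, followed by Il4ra at 37.0 ± 3.03, Il16 at 29.8 ± 1.78 and Il6st at 28.8 ± 3.18, and Il1rl1 stood at 2.05 ± 0.93. Il16 and Il6st, next to each other in that order, did not differ beyond their spread. With GATA2 the order was led again by Il1rl1, at 129 ± 61.1 TPM, and Il18rap, at 46.3 ± 12.0. With R307W Il1rl1 stood at 44.8 ± 24.9 TPM, and with T354M Il18rap, at 26.5 ± 6.65, Il16, at 25.4 ± 2.07, and Il17ra, at 25.2 ± 6.24, were highest and did not differ beyond their spread.

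**Figure D1:**
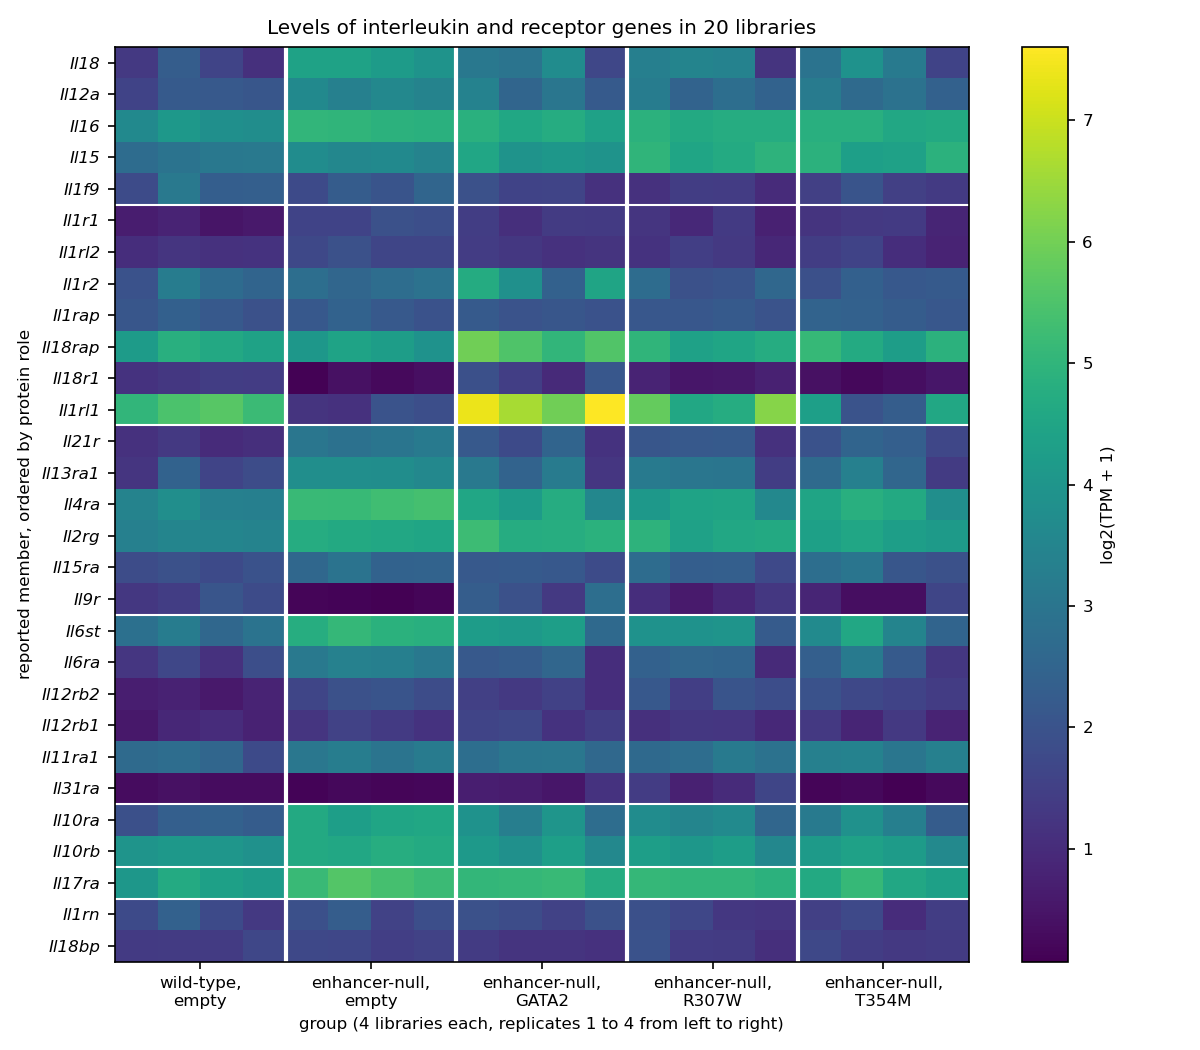
Levels of the 29 reported genes as log2(TPM + 1), 1 row per gene grouped by protein role and 1 column per library, with replicates 1 to 4 from left to right in each of the 5 groups. The Il1rl1 row runs from 1.22 to 2.99 TPM in enhancer-null libraries to 61.1 to 193 TPM with GATA2, while rows such as Il17ra and Il4ra are brightest in the enhancer-null empty-vector libraries.

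Enhancer-null and wild-type cells, both with the empty vector, were compared first. Loss of the enhancer raised 19 of the 29 genes and lowered 4 (edgeR, adjusted p under 0.05). Over all 15835 genes tested, 20.1% were higher and 23.2% lower. Shares over all genes, here and below, are not limited to genes at 1 TPM or more, as the 29 are. Of all 43 interleukin and receptor genes tested, 22 rose and 4 fell. The median log2 difference was 1.00 over the 29 genes and -0.05 over all genes tested. The 4 genes that fell were Il1rl1, Il18r1, Il9r and Il31ra, all receptor genes. Among the genes that rose were Il18, Il21r, Il10ra, Il13ra1, Il6st, Il6ra and Il1r1, each over 4-fold. In the same libraries all 6 monocyte and macrophage and all 5 dendritic cell markers rose, and all 9 mast cell and basophil and all 6 eosinophil markers fell. All 5 erythroid markers fell too, from a sum of 1420 to 2660 TPM in wild-type to 74.6 to 368 TPM in enhancer-null libraries. Of the 4 neutrophil markers 2 fell, and of the 6 progenitor markers 4 rose and 2 fell.

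GATA2 in enhancer-null cells, against the empty vector, raised 8 of the 29 genes and lowered 11, where 11.0% of all genes tested were higher and 8.23% lower. R307W raised 5 and lowered 11, where 17.5% of all genes tested were called and 7.48% were lower. T354M raised 4 and lowered 12, where 9.26% were higher and 8.11% lower. Of all 43 genes tested, 9 rose and 11 fell with GATA2, 5 rose and 12 fell with R307W, and 4 rose and 12 fell with T354M. Over these 43, the shares that rose with the variants were near those over all genes. These 3 comparisons and that of enhancer loss share the empty-vector libraries of enhancer-null cells. Without GATA2 replicate 4 the first count was 11 genes, 6 higher and 5 lower. For T354M the count was 10 without empty-vector replicate 1, 10 without empty-vector replicate 4 and 9 without T354M replicate 4, in place of 16, and 10 with limma on log2(TPM + 1). All 9 mast cell and basophil markers rose with GATA2, 7 with R307W and 5 with T354M, and all 6 eosinophil markers rose with each vector, whereas 5, 4 and 4 of the 6 monocyte and macrophage markers fell.

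**Figure D2:**
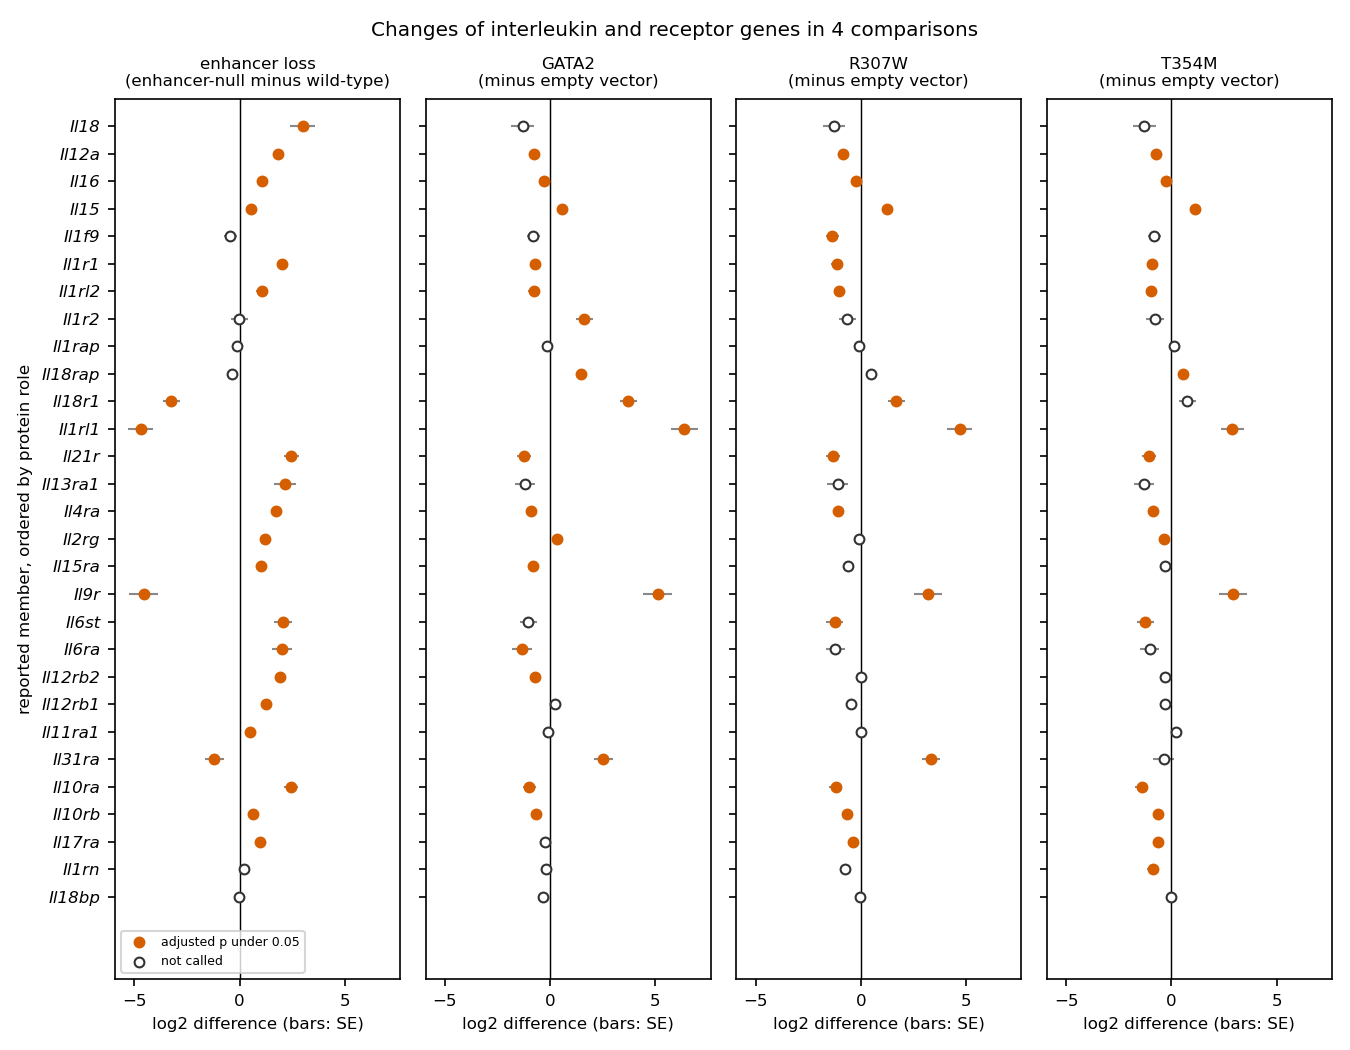
Log2 differences of the 29 reported genes (points) with their SE (bars) in 4 comparisons, with filled points for genes called at an adjusted p under 0.05 and open points for others. Most points lie right of 0 for enhancer loss, where 19 genes rose, and left of 0 with a vector, while Il1rl1, Il18r1, Il9r and Il31ra are left of 0 for enhancer loss and right of 0 with GATA2.

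Of the 5 interleukin genes reported, 4 rose on enhancer loss, where 20.1% of all genes tested rose. Il18 encodes a pro-inflammatory cytokine of the IL-1 family that is stored as a precursor and cleaved by caspase-1. Its level was 1.48, 3.90, 2.07 and 1.17 TPM in wild-type replicates 1 to 4 and 20.3, 20.2, 17.3 and 14.4 TPM in the enhancer-null libraries, with no overlap. The log2 difference was 3.00 (SE 0.59, edgeR adjusted p = 0.000439), or 7.98-fold; log2 differences are given throughout with their SE and the Benjamini-Hochberg adjusted p of edgeR's quasi-likelihood test. Il18 stood at 7.56, 6.88, 12.3 and 2.19 TPM with GATA2, 9.02, 10.02, 9.53 and 1.32 with R307W and 6.74, 14.2, 8.02 and 2.02 with T354M, every library below every enhancer-null one. Replicate 4 was the lowest of its group with each vector. The log2 differences, -1.31 (SE 0.54, adjusted p = 0.0999) for GATA2, -1.27 (SE 0.54, adjusted p = 0.113) for R307W and -1.29 (SE 0.54, adjusted p = 0.111) for T354M, missed the threshold in edgeR. A fit with the replicate number as a term (the replicate block) is given for GATA2 against the empty vector and for comparisons between vectors. There, replicates sharing a number deviated together in every pair. For R307W and T354M against the empty vector they did not in every pair by the criterion used, so a block value given for GATA2 alone shows no difference between vectors. With the block the GATA2 comparison of Il18 was called, at an adjusted p of 0.0055.

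Il15 differed from the other interleukins in that it rose on enhancer loss and rose further with each vector. IL-15 supports natural killer and memory T cells and is presented by its receptor on the producing cell. Its level was 5.71, 6.69, 7.50 and 7.66 TPM in wild-type and 12.3, 10.7, 11.5 and 9.85 TPM in enhancer-null libraries, a log2 difference of 0.56 (SE 0.17, edgeR adjusted p = 0.0111). Il15 reached 22.2 TPM in GATA2 replicate 1 and 14.4 to 15.5 TPM in the other 3. It stood at 31.2, 21.7, 24.7 and 29.9 TPM with R307W and 29.2, 18.9, 19.9 and 28.8 with T354M. The lowest library of each vector group lay above the highest enhancer-null one. Against the empty vector Il15 rose by 0.57 (SE 0.16, adjusted p = 0.0211) with GATA2, 1.23 (SE 0.16, adjusted p = 4.91e-05) with R307W and 1.12 (SE 0.16, adjusted p = 0.000128) with T354M on the log2 scale. The GATA2 call ended without empty-vector replicate 2 or GATA2 replicate 1 or 4 (adjusted p 0.0549 to 0.0728). Il15 was also higher with R307W than with GATA2, by 0.67 (SE 0.16, adjusted p = 0.0406), and so it was with T354M, by 0.55 (SE 0.16, adjusted p = 0.0352). Both variant groups overlapped the GATA2 group. The first of these calls ended without GATA2 replicate 2, 3 or 4 or R307W replicate 1, 3 or 4 (adjusted p 0.067 to 0.139), with only the 8 libraries compared (adjusted p 0.106) and on leaving out replicate 4 of every group (adjusted p 0.193). The second ended without GATA2 replicate 2, 3 or 4 or T354M replicate 1 or 4 (adjusted p 0.0898 to 0.167), with only the 8 libraries compared (adjusted p 0.11), with limma on log2(TPM + 1) (adjusted p 0.068) and on leaving out replicate 4 of every group (adjusted p 0.194).

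Il16 encodes a chemoattractant for CD4-bearing cells that is cut from a larger intracellular precursor, and its gene lies over part of Stard5 on the opposite strand, which averaged 4.26 TPM. Il16 stood at 11.5, 15.9, 13.1 and 12.6 TPM in wild-type and 31.5, 31.0, 29.0 and 27.7 TPM in enhancer-null libraries, with no overlap, and rose by 1.08 (SE 0.07, edgeR adjusted p = 2.62e-09). It measured 27.9, 22.5, 25.6 and 20.0 TPM with GATA2, 29.3, 24.0, 25.5 and 25.4 with R307W and 27.2, 27.2, 23.2 and 24.1 with T354M, all above every wild-type library. Its decreases with the vectors were small, -0.29 (SE 0.07, adjusted p = 0.00888), -0.22 (SE 0.07, adjusted p = 0.0423) and -0.26 (SE 0.07, adjusted p = 0.0178) in that order. They were called in edgeR. The GATA2 call ended with no filter on low counts (adjusted p 0.0845), with limma on log2(TPM + 1) (adjusted p 0.0613) and on leaving out replicate 4 of every group (adjusted p 0.0731). The R307W call ended without empty-vector replicate 1, 2, 3 or 4 or R307W replicate 1, 2, 3 or 4 (adjusted p 0.052 to 0.127), with no filter on low counts (adjusted p 0.274), with limma on log2(TPM + 1) (adjusted p 0.281) and on leaving out replicate 4 of every group (adjusted p 0.136). The T354M call ended without empty-vector replicate 1 (adjusted p 0.064), with no filter on low counts (adjusted p 0.138), with limma on log2(TPM + 1) (adjusted p 0.2) and on leaving out replicate 4 of every group (adjusted p 0.0674).

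Il12a encodes the p35 chain that forms IL-12 with p40 and IL-35 with Ebi3. Its level was 1.98, 3.62, 3.52 and 3.25 TPM in wild-type and 11.5, 9.15, 11.0 and 9.90 TPM in enhancer-null libraries, a rise of 1.80 (SE 0.22, edgeR adjusted p = 3.25e-06) with no overlap. Il12a stood at 9.65, 4.76, 7.12 and 3.56 TPM with GATA2, 8.37, 4.57, 5.98 and 4.42 with R307W and 8.28, 5.43, 6.46 and 4.33 with T354M. The mean of each vector group lay between the wild-type and enhancer-null means. It was lower than with the empty vector, with log2 differences of -0.79 (SE 0.21, adjusted p = 0.0145), -0.82 (SE 0.21, adjusted p = 0.0131) and -0.72 (SE 0.21, adjusted p = 0.026). For GATA2 the call ended without GATA2 replicate 4 (adjusted p 0.0639), with limma on log2(TPM + 1) (adjusted p 0.0519) and on leaving out replicate 4 of every group (adjusted p 0.0918). For R307W it ended without R307W replicate 4 (adjusted p 0.0606) and on leaving out replicate 4 of every group (adjusted p 0.066), and for T354M without empty-vector replicate 1 or 4 or T354M replicate 2 or 4 (adjusted p 0.0539 to 0.0896), with limma on log2(TPM + 1) (adjusted p 0.0634) and on leaving out replicate 4 of every group (adjusted p 0.102). Il12b, the p40 chain, was under 1 TPM in every group, at 0.20 ± 0.0709 TPM in enhancer-null and 0.0175 ± 0.0236 in wild-type cells. It was nonetheless called as higher after enhancer loss, 3.36 (SE 1.25, edgeR adjusted p = 0.037), a call that ended without wild-type replicate 1, 3 or 4 or empty-vector replicate 1, 3 or 4 (adjusted p 0.0517 to 0.0942), with limma on log2(TPM + 1) (adjusted p 0.0835) and on leaving out replicate 4 of every group (adjusted p 0.133).

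Il1f9, also known as Il36g, encodes IL-36 gamma, a ligand of the receptor Il1rl2. It measured 2.44, 7.73, 4.01 and 4.11 TPM in wild-type and 2.40, 3.81, 3.08 and 4.72 TPM in enhancer-null libraries, which overlapped, with a log2 difference of -0.45 (SE 0.31, edgeR adjusted p = 0.25). Il1f9 stood at 2.81, 2.00, 2.08 and 1.19 TPM with GATA2, 1.23, 1.72, 1.67 and 0.98 with R307W and 1.80, 3.07, 1.83 and 1.56 with T354M. The fall was called with R307W, -1.35 (SE 0.32, edgeR adjusted p = 0.00748), and that call ended without replicate 4 of every group (adjusted p 0.0923). With GATA2 the difference was -0.81 (SE 0.31, adjusted p = 0.0789), called with the replicate block (adjusted p = 0.0288). With T354M it was -0.82 (SE 0.31, adjusted p = 0.0797).

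Of the log2 differences of the 29 genes in the 8 comparisons, the largest was that of Il1rl1, in the IL-1 receptor family. Of its 7 reported genes, 2 rose and 2 fell on enhancer loss, 4 rose and 2 fell with GATA2, and 2 rose and 2 fell with each variant. Over all genes tested, 20.1% rose and 23.2% fell on enhancer loss, and 11.0% rose and 8.23% fell with GATA2. With R307W 1589 of all 15835 genes rose and 7.48% fell, and with T354M 9.26% rose and 8.11% fell. For enhancer loss, 2 and 2 of 7 were near the shares over all genes. Of the 7 genes, 6 form a cluster on chromosome 1 from 40074079 to 40551705 (GRCm38, 478 kb), all on the plus strand, in the order Il1r2, Il1r1, Il1rl2, Il1rl1, Il18r1 and Il18rap. Neighbours in this cluster moved in opposite directions, since Il1r1 and Il1rl2 rose on enhancer loss and Il1rl1 and Il18r1, 62.0 kb further, fell. Il18r1 starts 136 bases after the end of Il1rl1.

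**Figure D3:**
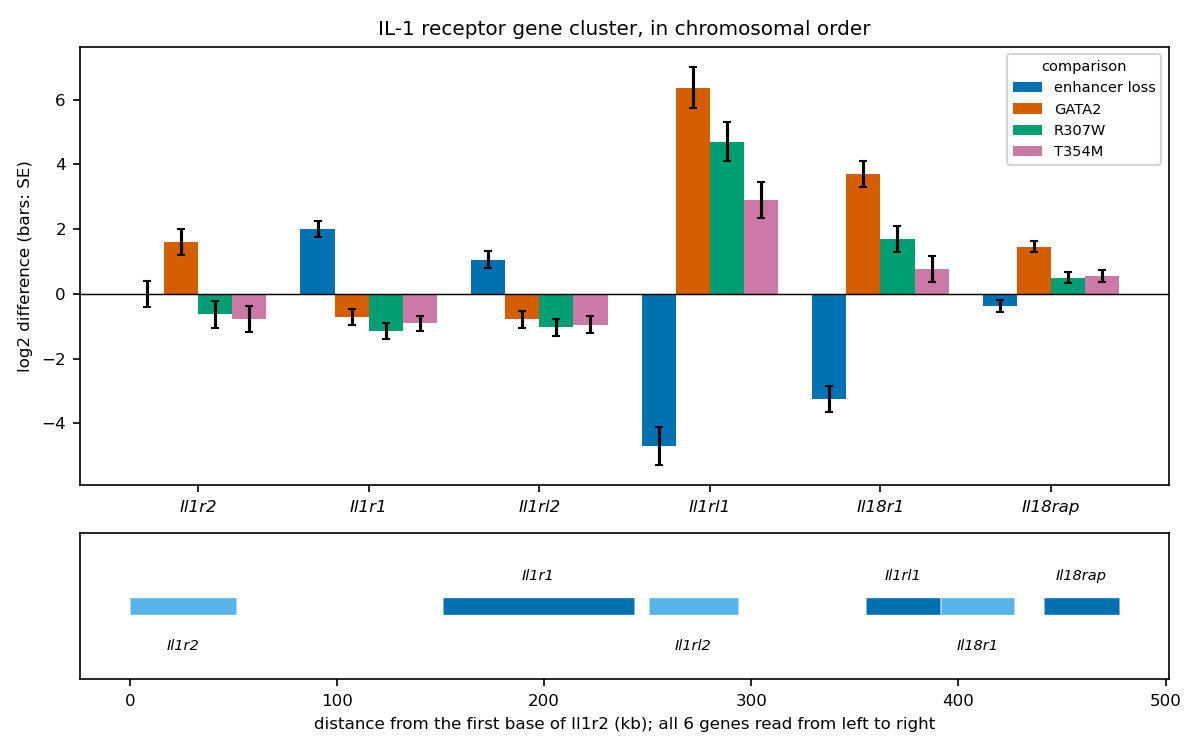
Upper panel, log2 differences (bars, with SE) of the 6 genes of the IL-1 receptor cluster in chromosomal order for enhancer loss and for GATA2, R307W and T354M against the empty vector; lower panel, the gene bodies to scale in kb. Il1r1 and Il1rl2 lie above 0 for enhancer loss and below 0 for the vectors, and Il1rl1 and Il18r1 the reverse, with Il1rl1 falling by 4.71 and rising by 6.38 with GATA2.

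Il1rl1 encodes ST2, the receptor chain for the alarmin IL-33, carried by mast cells, basophils, eosinophils and innate lymphoid cells. Its level was 31.4, 43.4, 49.3 and 35.7 TPM in wild-type and 1.28, 1.22, 2.99 and 2.71 TPM in enhancer-null libraries, a log2 difference of -4.71 (SE 0.60, edgeR adjusted p = 4.19e-06), or 26.2-fold lower. Il1rl1 stood at 166, 96.2, 61.1 and 193 TPM with GATA2, 55.3, 23.2, 25.7 and 75.0 with R307W and 18.9, 2.97, 3.90 and 22.9 with T354M. Every library with GATA2 lay above every wild-type library, those with R307W spanned the wild-type range, and all of those with T354M lay below it. Against the empty vector the log2 differences were 6.38 (SE 0.64, adjusted p = 2.88e-06) for GATA2, 4.70 (SE 0.60, adjusted p = 2.83e-05) for R307W and 2.90 (SE 0.56, adjusted p = 0.00165) for T354M, all called in edgeR and under every alternative run. In each vector group replicates 1 and 4 were higher than replicates 2 and 3. The summed mast cell and basophil markers were also higher in replicates 1 and 4 than in replicates 2 and 3 of each vector group, at 2490 and 3150 against 1870 and 1050 TPM with GATA2, 421 and 655 against 301 and 303 with R307W, and 745 and 938 against 296 and 387 with T354M. Their part in the levels of Il1rl1 was not tested.

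RefSeq (GRCm38.p6) annotates 2 transcription starts for Il1rl1, and in haematopoietic cells the upstream one is known to be used. The 250 bases before each start are shown, a choice made after the values of this gene were seen. Capitals mark AGATAA or TGATAA (letters that GATA factors can read) or AGGAAG (letters that ETS factors can read) on either strand. Other letters that these factors can read were not searched for and are not marked.
Il1rl1 upstream start, chr1:40429320-40429569, plus strand: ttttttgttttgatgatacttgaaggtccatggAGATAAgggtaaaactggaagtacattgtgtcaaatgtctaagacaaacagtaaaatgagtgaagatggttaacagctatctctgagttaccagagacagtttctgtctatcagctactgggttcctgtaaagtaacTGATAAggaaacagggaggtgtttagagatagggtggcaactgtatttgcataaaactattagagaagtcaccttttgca
Il1rl1 downstream start, chr1:40439379-40439628, plus strand: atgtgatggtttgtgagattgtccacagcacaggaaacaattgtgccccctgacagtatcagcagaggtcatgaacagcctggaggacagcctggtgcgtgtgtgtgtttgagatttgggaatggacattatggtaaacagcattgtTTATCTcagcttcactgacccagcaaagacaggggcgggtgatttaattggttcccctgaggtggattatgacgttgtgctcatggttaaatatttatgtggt
The upstream window holds AGATAA and TGATAA once each on the plus strand, and the downstream window holds AGATAA once, on the minus strand. Of all 32851 RefSeq promoter windows of 300 bases, from 250 before to 50 after the start, 18.6% hold AGATAA or TGATAA. A match is a run of letters and does not show binding.

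Il18r1 and Il18rap encode the ligand-binding and accessory chains of the IL-18 receptor. Il18r1 ranged over 1.25 to 1.71 TPM in wild-type, 0.09 to 0.32 in enhancer-null, 0.94 to 3.32 with GATA2, 0.44 to 0.76 with R307W and 0.17 to 0.45 with T354M. It fell on enhancer loss, -3.25 (SE 0.40, edgeR adjusted p = 2.64e-06), and rose with GATA2, 3.71 (SE 0.40, edgeR adjusted p = 5.44e-06), and R307W, 1.69 (SE 0.40, adjusted p = 0.00688), the last of which was not called with limma on log2(TPM + 1) (adjusted p 0.16). With T354M the difference was 0.76 (SE 0.41, adjusted p = 0.215). Il18rap had a far higher level, 17.5, 27.3, 23.5 and 20.2 TPM in wild-type and 15.5, 20.6, 18.2 and 14.1 TPM in enhancer-null libraries, which overlapped, with a log2 difference of -0.37 (SE 0.17, adjusted p = 0.0921). Il18rap stood at 61.3, 45.6, 32.0 and 46.2 TPM with GATA2, 31.2, 19.8, 21.8 and 25.8 with R307W and 33.7, 24.6, 18.2 and 29.4 with T354M. It rose with GATA2, 1.46 (SE 0.18, edgeR adjusted p = 1.92e-05), where all 4 libraries lay above every wild-type and enhancer-null one. It was called with T354M, 0.55 (SE 0.17, adjusted p = 0.0357), but that call ended without empty-vector replicate 1, 3 or 4 or T354M replicate 1 or 4 (adjusted p 0.0727 to 0.159), with limma on log2(TPM + 1) (adjusted p 0.0699) and on leaving out replicate 4 of every group (adjusted p 0.215). With R307W the difference was 0.50 (SE 0.17, adjusted p = 0.0564). On enhancer loss the ligand-binding chain was called and the accessory chain was not, and the difference between both was not tested.

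Il1r2 encodes the decoy receptor that binds IL-1 without signalling. It measured 2.95, 8.34, 5.56 and 4.63 TPM in wild-type and 5.98, 4.88, 5.80 and 6.52 TPM in enhancer-null libraries, a log2 difference of -0.01 (SE 0.40, adjusted p = 0.986). Il1r2 stood at 24.9, 13.4, 4.30 and 21.3 TPM with GATA2, 5.65, 2.83, 3.05 and 4.97 with R307W and 2.79, 4.22, 3.40 and 3.57 with T354M. GATA2 replicates 1, 2 and 4 were above every library of the other groups, and GATA2 replicate 3 was within them. The rise with GATA2 was 1.61 (SE 0.40, edgeR adjusted p = 0.0088), while the differences with R307W, -0.64 (SE 0.40, adjusted p = 0.301), and T354M, -0.78 (SE 0.41, adjusted p = 0.205), missed the threshold. Directly compared, Il1r2 was lower with R307W than with GATA2, -2.25 (SE 0.41, edgeR adjusted p = 0.00582), and lower with T354M than with GATA2, -2.39 (SE 0.41, edgeR adjusted p = 0.000726). The R307W call ended with only the 8 libraries compared (adjusted p 0.0958). An unclassified transcript of mean level 1.32 TPM overlaps Il1r2, and reads in the overlap cannot be assigned with certainty.

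Il1r1, the signalling receptor for IL-1, rose from 0.56 ± 0.15 to 2.39 ± 0.44 TPM on enhancer loss (n = 4 and 4), 2.01 (SE 0.26, edgeR adjusted p = 4.55e-06). It stood at 1.49 ± 0.25 TPM with GATA2, 1.12 ± 0.39 with R307W and 1.28 ± 0.34 with T354M, called as lower than with the empty vector in all 3, with log2 differences of -0.71 (SE 0.24, adjusted p = 0.0461), -1.15 (SE 0.25, adjusted p = 0.00371) and -0.91 (SE 0.24, adjusted p = 0.0149). For GATA2 this ended without empty-vector replicate 1, 3 or 4 or GATA2 replicate 1, 2, 3 or 4 (adjusted p 0.0502 to 0.137), with no filter on low counts (adjusted p 0.0523) and on leaving out replicate 4 of every group (adjusted p 0.115). For T354M it ended without empty-vector replicate 4 or T354M replicate 4 (adjusted p 0.0555 to 0.0589) and on leaving out replicate 4 of every group (adjusted p 0.11). Il1rl2, the receptor for the IL-36 cytokines, rose from 1.22 ± 0.0947 to 2.33 ± 0.34 TPM, 1.05 (SE 0.26, edgeR adjusted p = 0.00302), and stood at 1.40 ± 0.19, 1.35 ± 0.36 and 1.40 ± 0.58 TPM with the 3 vectors. It was called as lower with each, at -0.79 (SE 0.26, adjusted p = 0.038), -1.03 (SE 0.26, adjusted p = 0.0111) and -0.96 (SE 0.26, adjusted p = 0.0163). For GATA2 this ended without empty-vector replicate 1, 2, 3 or 4 or GATA2 replicate 1, 2, 3 or 4 (adjusted p 0.0633 to 0.0947). For T354M it ended without T354M replicate 4 (adjusted p 0.0589). Il1rap, the accessory chain shared by the receptors for IL-1, IL-33 and IL-36, had means of 3.20 to 4.01 TPM, and was called in none of the 8 comparisons (smallest edgeR adjusted p = 0.0925). With the replicate block it was called as higher with T354M than with GATA2 (adjusted p = 0.0222).

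Among the receptors that use the common gamma chain or the IL-4 receptor chain, 5 of 6 rose on enhancer loss and Il9r fell, where 20.1% of all genes tested rose and 23.2% fell. Il2rg, the gamma chain itself, stood at 9.20, 10.4, 10.3 and 9.83 TPM in wild-type and 25.4, 24.1, 22.9 and 21.5 TPM in enhancer-null libraries, a rise of 1.20 (SE 0.09, edgeR adjusted p = 5.62e-09). Il2rg measured 36.3, 25.4, 26.1 and 28.2 TPM with GATA2, 29.7, 19.7, 23.3 and 23.9 with R307W and 19.5, 21.9, 18.6 and 17.2 with T354M. No vector library came near the wild-type range, the lowest being 17.2 TPM against a wild-type maximum of 10.4. With GATA2 the difference from the empty vector was 0.30 (SE 0.08, edgeR adjusted p = 0.0172), and it ended without empty-vector replicate 3 or GATA2 replicate 1 or 4 (adjusted p 0.0515 to 0.0808), with no filter on low counts (adjusted p 0.0857), with limma on log2(TPM + 1) (adjusted p 0.13) and on leaving out replicate 4 of every group (adjusted p 0.114). With T354M Il2rg fell, -0.37 (SE 0.08, adjusted p = 0.00604), a call that ended with limma on log2(TPM + 1) (adjusted p 0.154). It was lower with T354M than with GATA2, -0.67 (SE 0.08, edgeR adjusted p = 4.94e-05), with no overlap between the groups.

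Il4ra, the chain shared by the receptors for IL-4 and IL-13, measured 9.74, 12.8, 9.12 and 8.97 TPM in wild-type and 35.0, 34.2, 37.9 and 40.9 TPM in enhancer-null libraries, a rise of 1.74 (SE 0.23, edgeR adjusted p = 5.34e-06). Il4ra stood at 22.2, 17.3, 25.7 and 10.8 TPM with GATA2, 15.8, 20.9, 21.3 and 11.0 with R307W and 21.0, 27.1, 24.2 and 12.8 with T354M, all below every enhancer-null library. Replicate 4, at 10.8 to 12.8 TPM, was the lowest with each vector and lay within the wild-type range or, with T354M, just above it. The falls were -0.90 (SE 0.22, adjusted p = 0.00821), -1.08 (SE 0.22, adjusted p = 0.00265) and -0.88 (SE 0.22, adjusted p = 0.0104). Il13ra1, which joins Il4ra in the receptor of non-lymphoid cells, measured 1.36, 4.46, 2.07 and 2.5 TPM in wild-type and 12.7, 12.9, 12.5 and 11.0 TPM in enhancer-null libraries, 2.16 (SE 0.51, edgeR adjusted p = 0.00195). Il13ra1 stood at 7.62, 4.52, 8.15 and 1.41 TPM with GATA2, 7.80, 7.08, 6.98 and 1.71 with R307W and 5.32, 9.15, 4.89 and 1.58 with T354M. Although every vector library was below every enhancer-null one, the differences, -1.20 (SE 0.49, adjusted p = 0.0956), -1.10 (SE 0.49, adjusted p = 0.129) and -1.30 (SE 0.49, adjusted p = 0.0771), missed the threshold, with replicate 4 far below the other 3. With the replicate block the GATA2 difference was called (adjusted p = 0.00545).

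Il21r, the receptor chain for IL-21, lies 24.0 kb downstream of Il4ra on chromosome 7. It rose from 1.21, 1.52, 1.01 and 1.13 TPM in wild-type to 7.10, 6.29, 6.97 and 7.76 TPM in enhancer-null libraries, 2.46 (SE 0.34, edgeR adjusted p = 1.29e-05). Il21r measured 3.48, 2.39, 4.70 and 1.25 TPM with GATA2, 3.25, 3.53, 3.59 and 1.20 with R307W and 2.89, 4.64, 4.07 and 2.19 with T354M. It was lower than with the empty vector, with log2 differences of -1.25 (SE 0.32, adjusted p = 0.0116), -1.32 (SE 0.33, adjusted p = 0.00976) and -1.05 (SE 0.32, adjusted p = 0.031), and the T354M call ended without empty-vector replicate 1, 3 or 4 or T354M replicate 1 or 4 (adjusted p 0.0566 to 0.111). Il15ra, which presents IL-15, stood at 2.51, 2.85, 2.42 and 2.95 TPM in wild-type and 5.0, 6.60, 4.40 and 4.59 TPM in enhancer-null libraries, 1.00 (SE 0.22, edgeR adjusted p = 0.000947). Il15ra measured 3.48, 3.56, 3.39 and 2.48 TPM with GATA2, 5.65, 3.99, 4.08 and 2.32 with R307W and 5.95, 6.99, 3.24 and 2.85 with T354M. Only the fall with GATA2 was called among the 3 vectors, -0.81 (SE 0.21, edgeR adjusted p = 0.0127), and it ended without GATA2 replicate 4 (adjusted p 0.0582) and with limma on log2(TPM + 1) (adjusted p 0.118). The difference with R307W, -0.60 (edgeR adjusted p = 0.0596), narrowly missed the threshold. Il15 and its receptor chain therefore moved in opposite directions with GATA2.

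Il9r, the receptor chain for IL-9, a mast cell growth factor, measured 1.43, 1.69, 3.15 and 2.46 TPM in wild-type and 0.12, 0.1, 0.07 and 0.13 TPM in enhancer-null libraries, a fall of 23.6-fold, with a log2 difference of -4.56 (SE 0.68, edgeR adjusted p = 2.49e-05). Il9r stood at 3.89, 2.86, 1.52 and 5.95 TPM with GATA2, 1.06, 0.53, 0.87 and 1.44 with R307W and 0.8, 0.28, 0.27 and 2.11 with T354M, every one above every enhancer-null library. The rises were 5.10 (SE 0.68, adjusted p = 4.77e-05), 3.19 (SE 0.68, adjusted p = 0.00355) and 2.94 (SE 0.68, adjusted p = 0.00611). On the log2(TPM + 1) scale, which compresses low levels, limma did not call those with R307W (adjusted p = 0.066) and T354M (adjusted p = 0.15). Replicate 4 was the highest with each vector, as were the summed mast cell and basophil markers.

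Of the 6 receptors in the gp130 and IL-12 group, 5 rose on enhancer loss and Il31ra fell, where 20.1% of all genes tested rose and 23.2% fell. Il6st encodes gp130, and it measured 6.28, 8.49, 4.95 and 6.60 TPM in wild-type and 26.0, 33.3, 28.2 and 27.5 TPM in enhancer-null libraries, a rise of 2.06 (SE 0.42, edgeR adjusted p = 0.000537). Il6st stood at 17.6, 16.3, 18.8 and 5.21 TPM with GATA2, 14.0, 14.1, 14.8 and 3.72 with R307W and 11.7, 23.2, 10.1 and 4.67 with T354M. Every vector library was below every enhancer-null one, and replicate 4 of each vector group, at 3.72 to 5.21 TPM, was the lowest of its group. That of GATA2 lay below 3 of the 4 wild-type libraries, and those of R307W and T354M below all 4. The fall with R307W was called, -1.24 (SE 0.41, adjusted p = 0.0411), and that call ended without empty-vector replicate 1, 2, 3 or 4 or R307W replicate 1, 3 or 4 (adjusted p 0.0524 to 0.122). The fall with T354M, -1.23 (SE 0.41, adjusted p = 0.0432), ended without empty-vector replicate 1, 2, 3 or 4 or T354M replicate 1, 3 or 4 (adjusted p 0.0692 to 0.133). The difference with GATA2, -1.05 (SE 0.40, adjusted p = 0.0769), missed the threshold and was called with the replicate block (adjusted p = 0.00593). Il6ra, the IL-6 receptor chain that pairs with gp130, measured 1.38, 2.19, 1.23 and 2.71 TPM in wild-type and 7.75, 9.49, 8.91 and 7.54 TPM in enhancer-null libraries, 2.03 (SE 0.47, edgeR adjusted p = 0.00175). Il6ra stood at 3.51, 3.77, 4.85 and 1.08 TPM with GATA2, 4.26, 4.90, 4.63 and 0.94 with R307W and 4.15, 7.88, 3.56 and 1.45 with T354M, again lowest in replicate 4. The fall was called with GATA2, -1.34 (SE 0.46, adjusted p = 0.0472), and that call ended without empty-vector replicate 1, 2, 3 or 4 or GATA2 replicate 1, 2 or 4 (adjusted p 0.0757 to 0.152). The differences with R307W, -1.20 (SE 0.46, adjusted p = 0.0755), and T354M, -1.03 (SE 0.45, adjusted p = 0.129), missed the threshold.

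**Figure D4:**
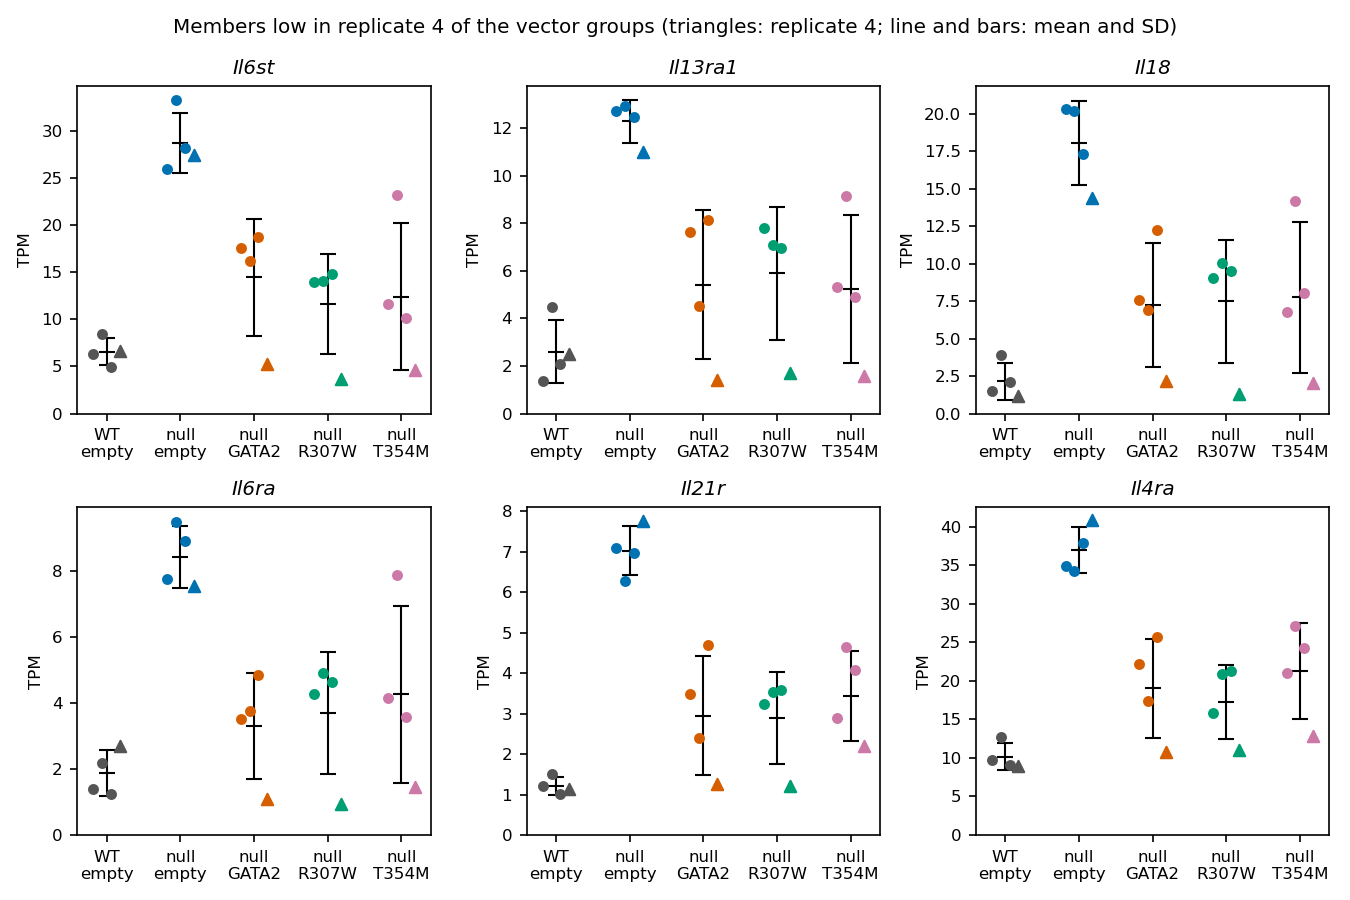
TPM of 6 receptor and ligand genes in each library (circles for replicates 1 to 3, triangles for replicate 4), with the mean and SD of each group of 4. In the groups with a vector, replicate 4 lies lowest, for example at 3.72 TPM for Il6st with R307W against 14.0 to 14.8 TPM in the other 3 replicates, while for Il6st in enhancer-null cells with the empty vector it lies at 27.5 TPM against 26.0 to 33.3 TPM.

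For 13 of the 29 genes replicate 4 was the lowest library in all 3 vector groups. The share of all genes tested with this order was not counted. It was the lowest for 9 genes in enhancer-null and for 6 in wild-type cells with the empty vector. The summed monocyte and macrophage markers were also lowest in replicate 4, at 170 TPM against 377 to 496 with GATA2, 223 against 454 to 515 with R307W, and 213 against 381 to 641 with T354M. So were the summed hepatocyte markers Alb, Afp, Apoa1 and Ttr, at 99.4 TPM against 227 to 571, 50.5 against 201 to 489, and 108 against 185 to 653. With the empty vector in enhancer-null cells the hepatocyte sum was 211 against 372 to 703 TPM. The part of either set of markers in the values of these genes was not tested. Without replicate 4 of every group, 16 genes were called with GATA2, 13 with R307W and 13 with T354M, against 19, 16 and 16. Over all genes tested 1996, 1509 and 1681 were then called, against 3042, 2773 and 2751.

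Il31ra, the receptor chain for IL-31, lies on chromosome 13 at 9.8 kb from Il6st on the opposite strand, and the pair moved in opposite directions on enhancer loss. It was low throughout, at 0.24 to 0.34 TPM in wild-type, 0.11 to 0.17 in enhancer-null, 0.43 to 1.25 with GATA2, 0.7 to 2.11 with R307W and 0.05 to 0.19 with T354M. Il31ra overlaps Gm3226, a pseudogene of the same strand with a mean of 0.6 TPM. Reads in the overlap cannot be assigned with certainty, so the level of Il31ra is uncertain. It rose with GATA2, 2.52 (SE 0.44, edgeR adjusted p = 0.000566), and with R307W, 3.33 (SE 0.44, edgeR adjusted p = 4.44e-05), where all libraries lay above every enhancer-null one. With T354M the difference was -0.36 (SE 0.49, adjusted p = 0.677), and the libraries overlapped those with the empty vector. Of the 29 genes Il31ra alone was called between R307W and T354M, 3.69 (SE 0.45, edgeR adjusted p = 0.000105), with no overlap, where 3.49% of all genes tested were called in either direction and 2.30% were higher with R307W. Il31ra reached a mean of 1 TPM with R307W alone, at 1.36 TPM. It is thus among the 29 only through the group in which it was highest, although the adjustment was over all genes tested. The fall on enhancer loss, -1.20 (SE 0.46, edgeR adjusted p = 0.0395), rests on 8 to 26 counts a library and ended without wild-type replicate 1, 2, 3 or 4 or empty-vector replicate 1, 2, 3 or 4 (adjusted p 0.0551 to 0.0848), with no filter on low counts (adjusted p 0.0588) and with limma on log2(TPM + 1) (adjusted p 0.421).

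Il12rb1 and Il12rb2, the chains of the IL-12 receptor, rose on enhancer loss from 0.78 ± 0.23 to 1.53 ± 0.30 TPM, 1.23 (SE 0.20, edgeR adjusted p = 5.71e-05), and from 0.66 ± 0.12 to 2.63 ± 0.39 TPM, 1.91 (SE 0.19, adjusted p = 2.38e-07). Il12rb1 then stood at 1.81 ± 0.42, 1.25 ± 0.25 and 1.14 ± 0.41 TPM with GATA2, R307W and T354M, none of which was called against the empty vector. Against GATA2 it was called as lower with the replicate block for both R307W (adjusted p = 0.0384) and T354M (adjusted p = 0.0386). Il12rb2 stood at 1.58 ± 0.36, 2.74 ± 0.73 and 2.21 ± 0.51 TPM. It was lower than with the empty vector with GATA2, -0.73 (SE 0.18, edgeR adjusted p = 0.00829), a call that ended without replicate 4 of every group (adjusted p 0.0655). It was higher with R307W than with GATA2, 0.75 (SE 0.18, edgeR adjusted p = 0.0359), and that call ended without GATA2 replicate 1, 2 or 4 or R307W replicate 1, 3 or 4 (adjusted p 0.0649 to 0.172), with no filter on low counts (adjusted p 0.0579), with only the 8 libraries compared (adjusted p 0.155), with limma on log2(TPM + 1) (adjusted p 0.116) and on leaving out replicate 4 of every group (adjusted p 0.256). Il12rb2 overlaps Serbp1, a gene of the other strand with a mean of 310 TPM, and the strand setting of the counts is not given in the sources used here, so its level is uncertain. Il11ra1, the IL-11 receptor chain, measured 5.34, 5.76, 4.88 and 2.39 TPM in wild-type and 7.31, 8.56, 6.83 and 8.22 TPM in enhancer-null libraries, 0.50 (SE 0.18, edgeR adjusted p = 0.0306). Il11ra1 stood at 5.93, 7.09, 7.32 and 5.08 TPM with GATA2, 5.27, 5.82, 7.84 and 6.51 with R307W and 9.14, 9.69, 7.22 and 9.28 with T354M, with none called against the empty vector. Its call on enhancer loss ended without wild-type replicate 3 or 4 or empty-vector replicate 4 (adjusted p 0.0664 to 0.117), with no filter on low counts (adjusted p 0.0607), with only the 8 libraries compared (adjusted p 0.065) and on leaving out replicate 4 of every group (adjusted p 0.285). Its near-identical copy Il11ra2 is listed at 0 in every library, and the gene body of Il11ra1 overlaps Galt, Dctn3 and other genes, so that its level is also uncertain.

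Both reported chains of the IL-10 receptor rose on enhancer loss and fell with every vector. Il10ra, the chain specific for the anti-inflammatory cytokine IL-10, measured 2.75, 4.13, 4.36 and 3.82 TPM in wild-type and 23.9, 18.8, 21.8 and 22.5 TPM in enhancer-null libraries, 2.44 (SE 0.32, edgeR adjusted p = 6.20e-06). Il10ra stood at 14.1, 8.78, 15.1 and 5.82 TPM with GATA2, 12.2, 10.3, 11.8 and 4.94 with R307W and 8.04, 13.7, 8.97 and 3.78 with T354M. The falls were -1.0 (SE 0.30, adjusted p = 0.028), -1.19 (SE 0.30, adjusted p = 0.0122) and -1.40 (SE 0.31, adjusted p = 0.00424), and the first ended without empty-vector replicate 1, 3 or 4 or GATA2 replicate 2 or 4 (adjusted p 0.0506 to 0.107). Il10rb, a chain shared with the receptors for IL-22 and type III interferon, measured 14.6, 16.1, 15.3 and 13.8 TPM in wild-type and 24.1, 23.0, 26.2 and 24.6 TPM in enhancer-null libraries, 0.61 (SE 0.15, edgeR adjusted p = 0.00276). Il10rb stood at 16.3, 13.3, 19.1 and 10.9 TPM with GATA2, 18.7, 15.8, 18.2 and 10.8 with R307W and 17.0, 20.0, 17.3 and 11.3 with T354M, below every enhancer-null library and around the wild-type ones. Its falls, -0.69 (SE 0.15, adjusted p = 0.00358), -0.67 (SE 0.15, adjusted p = 0.00532) and -0.63 (SE 0.15, adjusted p = 0.00794), were called under every alternative run.

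Il17ra, the chain common to the receptors for IL-17A, IL-17F and IL-25, measured 15.7, 24.3, 19.6 and 17.4 TPM in wild-type and 35.4, 47.4, 40.9 and 36.2 TPM in enhancer-null libraries, 0.95 (SE 0.10, edgeR adjusted p = 7.79e-07). Il17ra stood at 32.5, 32.8, 34.1 and 25.6 TPM with GATA2, 33.2, 31.8, 31.3 and 29.2 with R307W and 24.2, 34.0, 22.9 and 19.5 with T354M. It fell with T354M, -0.65 (SE 0.10, edgeR adjusted p = 0.000275), and with R307W, -0.35 (SE 0.10, adjusted p = 0.0243), where the call ended without empty-vector replicate 2 or 4 or R307W replicate 1, 3 or 4 (adjusted p 0.0557 to 0.0773), with no filter on low counts (adjusted p 0.0519), with limma on log2(TPM + 1) (adjusted p 0.162) and on leaving out replicate 4 of every group (adjusted p 0.103). With GATA2 the difference, -0.27 (SE 0.10, adjusted p = 0.0735), was called with the replicate block (adjusted p = 0.00308). The T354M level was below that with GATA2, -0.38 (SE 0.10, edgeR adjusted p = 0.0217), a call that ended without GATA2 replicate 2 or 3 or T354M replicate 1, 3 or 4 (adjusted p 0.0501 to 0.073), with limma on log2(TPM + 1) (adjusted p 0.271) and on leaving out replicate 4 of every group (adjusted p 0.136). Neither of the 2 soluble inhibitors was called on enhancer loss. Il18bp, which binds IL-18, had means of 1.35 to 2.05 TPM, was called in none of the 8 comparisons and overlaps Numa1, a gene of the other strand at 43.5 TPM. Il1rn, the IL-1 receptor antagonist, had means of 1.73 to 2.82 TPM and was called as lower with T354M than with the empty vector, -0.89 (SE 0.26, edgeR adjusted p = 0.0228), a call that ended without empty-vector replicate 1, 2 or 4 or T354M replicate 1, 3 or 4 (adjusted p 0.0542 to 0.0726), with limma on log2(TPM + 1) (adjusted p 0.159) and on leaving out replicate 4 of every group (adjusted p 0.0763). The difference of Il1rn between R307W and the empty vector, -0.73 (edgeR adjusted p = 0.0549), narrowly missed the threshold. With the replicate block Il1rn was also lower than with GATA2 for R307W (adjusted p = 0.0452) and T354M (adjusted p = 0.00314).

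The variants, each with an amino acid change in a zinc finger, were then set against GATA2 itself. Both comparisons use the same GATA2 libraries. With R307W 2 of the 29 genes were higher and 4 lower, where 0.587% of all genes tested were higher and 1.14% lower. The higher ones were Il15 and Il12rb2, and the lower ones were Il18r1, Il1r2, Il18rap and Il2rg. Il18r1 differed by -2.02 (SE 0.35, edgeR adjusted p = 0.00431) and Il18rap by -0.96 (SE 0.18, edgeR adjusted p = 0.00574), with no overlap for either gene. The Il18r1 call ended with only the 8 libraries compared (adjusted p 0.0838), and that of Il2rg, -0.39 (SE 0.08, adjusted p = 0.0169), ended without GATA2 replicate 1 or 4 or R307W replicate 2 or 3 (adjusted p 0.0629 to 0.0981), with no filter on low counts (adjusted p 0.0918), with only the 8 libraries compared (adjusted p 0.132), with limma on log2(TPM + 1) (adjusted p 0.604) and on leaving out replicate 4 of every group (adjusted p 0.101). The count of 6 was 3 without GATA2 replicate 4, 3 without R307W replicate 3, 3 without replicate 4 of every group and 1 with only the 8 libraries compared. With the replicate block it was 10, which added Il1rl1 (adjusted p = 0.0055, and 0.129 without the block) and Il9r (adjusted p = 0.00168, and 0.0949 without) as lower with R307W. Over all genes tested the block also raised the count, from 274 of 15835 to 637 of 15469. Of the 9 mast cell and basophil markers 6 were lower with R307W than with GATA2.

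With T354M 1 of the 29 genes, Il15, was higher than with GATA2 and 8 were lower, where 3.86% of all genes tested were higher and 6.14% lower. Against GATA2 Il1rl1 differed by -3.47 (SE 0.54, edgeR adjusted p = 0.000299), Il18r1 by -2.95 (SE 0.37, adjusted p = 5.0e-05), Il31ra by -2.88 (SE 0.45, adjusted p = 0.000269) and Il9r by -2.16 (SE 0.55, adjusted p = 0.0146) on the log2 scale. For Il1rl1, Il18r1 and Il31ra all 4 libraries with T354M lay below all 4 with GATA2. The Il9r call ended without GATA2 replicate 4 or T354M replicate 3 (adjusted p 0.05 to 0.0771) and with only the 8 libraries compared (adjusted p 0.087). Il18rap differed by -0.91 (SE 0.17, adjusted p = 0.00187), and Il1r2, Il2rg and Il17ra completed the 8. The replicate block added Il15ra (adjusted p = 0.0273) as higher with T354M. Of the 9 mast cell and basophil markers 7 were lower with T354M than with GATA2, and their part in these differences was not tested. Between the variants, Il1rl1 stood with R307W at 44.8 ± 24.9 against 12.2 ± 10.2 TPM with T354M, with no overlap, missed the threshold without the block, 1.80 (SE 0.51, adjusted p = 0.0611), and was called with it (adjusted p = 0.00151). The block also called Il17ra (adjusted p = 0.00543) and Il2rg (adjusted p = 0.0342) as higher with R307W, which brought the count from 1 to 4. Over all genes tested it brought the count from 553 of 15835 to 1319 of 15469.

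**Figure D5:**
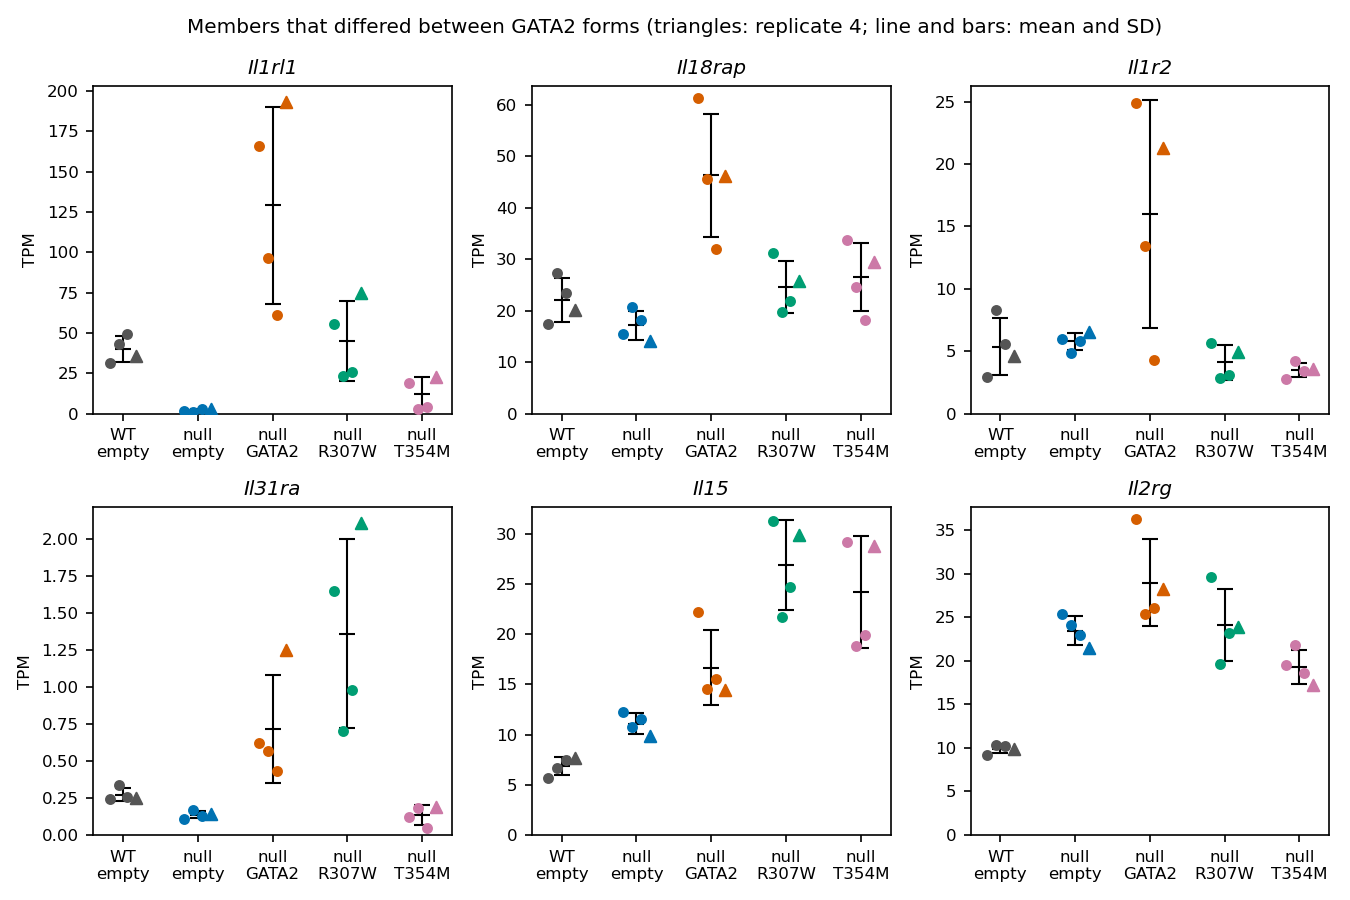
TPM of 6 genes that differed between vectors, 1 point per library (triangles for replicate 4), with the mean and SD of each group of 4. Il1rl1 and Il18rap are highest with GATA2, Il1r2 is raised with GATA2 except in replicate 3 at 4.30 TPM, Il31ra is raised with GATA2 and R307W and stays at 0.05 to 0.19 TPM with T354M, and Il15 is highest with the variants.

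Enhancer-null cells with GATA2 were last compared with wild-type cells with the empty vector. Of the 29 genes 16 were higher with GATA2 and 1, Il1f9, lower, where 30.7% of all genes tested were called in either direction and 14.7% were higher. Il2rg stood at 29.0 ± 4.99 against 9.92 ± 0.53 TPM, 1.5 (SE 0.09, edgeR adjusted p = 9.58e-10), and Il12rb1, Il15 and Il18rap were higher by 1.48 (SE 0.20, adjusted p = 1.45e-05), 1.12 (SE 0.17, adjusted p = 4.24e-05) and 1.08 (SE 0.18, adjusted p = 0.00011). Il10ra, at 11.0 ± 4.41 against 3.77 ± 0.71 TPM, Il1r1, Il16, Il17ra and Il12rb2 were also higher, with edgeR adjusted p of 0.00156, 0.00066, 2.12e-07, 5.68e-05 and 9.50e-05. Il1rl1 was 3.18-fold higher, 1.67 (SE 0.51, edgeR adjusted p = 0.0167), a call that ended without GATA2 replicate 4 (adjusted p 0.0671). Il10rb, Il15ra, Il18r1 and Il9r did not differ past the threshold, with log2 differences of -0.08 (SE 0.15, adjusted p = 0.727), 0.19 (SE 0.22, adjusted p = 0.558), 0.47 (SE 0.34, adjusted p = 0.313) and 0.54 (SE 0.52, adjusted p = 0.468). All 5 erythroid markers were lower with GATA2, at a sum of 69.8 to 165 TPM against 1420 to 2660 in wild-type libraries. All 5 dendritic cell markers, 4 of 6 eosinophil markers and 4 of 6 markers for monocytes or macrophages were higher. For mast cells and basophils 6 of 9 were higher and 1 lower, and for neutrophils 1 of 4 was higher and 3 lower. The part of these markers in the differences between both groups was not tested.

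Promoter windows of RefSeq (GRCm38.p6) were found for 24 of the 29 genes. Of these, 8 held AGATAA or TGATAA on either strand in at least 1 window: Il1rl1, Il9r, Il31ra, Il18rap, Il1r2, Il12a, Il1f9 and Il6ra. Of the 35 windows of the 24 genes 9 held one, where 18.6% of all windows did. The share of all genes with such a window was not counted. Of the 4 genes that fell on enhancer loss, Il1rl1, Il9r and Il31ra were among the 8 and Il18r1 was not. Il12a and Il6ra, also among the 8, rose, and Il18rap, Il1r2 and Il1f9 were not called. AGGAAG was found in 12 of the 35 windows and in 35.4% of all windows. The 250 bases before the start are shown for 3 genes with the smallest adjusted p on enhancer loss among those with a window, for Il16 the most upstream of 3 windows, with any match in capitals.
Il16, chr7:83735540-83735789, minus strand: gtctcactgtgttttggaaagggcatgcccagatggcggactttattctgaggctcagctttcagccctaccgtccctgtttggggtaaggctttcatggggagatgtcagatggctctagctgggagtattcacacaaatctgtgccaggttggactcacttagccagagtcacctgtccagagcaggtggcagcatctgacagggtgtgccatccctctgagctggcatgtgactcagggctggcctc
Il2rg, chrX:101268256-101268505, minus strand: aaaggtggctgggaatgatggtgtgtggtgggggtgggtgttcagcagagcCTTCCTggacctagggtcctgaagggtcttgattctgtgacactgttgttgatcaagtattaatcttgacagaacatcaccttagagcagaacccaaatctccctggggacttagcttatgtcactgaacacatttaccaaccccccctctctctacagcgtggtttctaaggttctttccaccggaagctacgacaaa
Il12rb2, chr6:67376189-67376438, minus strand: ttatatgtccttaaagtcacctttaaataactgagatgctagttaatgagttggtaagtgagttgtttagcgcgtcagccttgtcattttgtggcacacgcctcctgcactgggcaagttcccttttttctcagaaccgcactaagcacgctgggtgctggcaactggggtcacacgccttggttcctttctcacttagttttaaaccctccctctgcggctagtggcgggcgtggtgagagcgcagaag
Only the Il2rg window shows a match of the letters searched, AGGAAG on its minus strand, and none of these 3 shows AGATAA or TGATAA in the letters printed. Window 2 of 3 of Il16, which is not printed, holds AGGAAG.

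Genes that carry interleukin signals inside the cell were described from a list of 31, of which 30 were tested. On enhancer loss 19 rose and 5 fell, with a median log2 difference of 0.64 over the 30 and -0.05 over all genes tested, of which 20.1% rose and 23.2% fell. Those that rose included the kinases Jak3 and Tyk2, the transcription factors Stat2, from 3.95 to 11.3 TPM, Stat3 and Stat6, the adaptor Myd88, the protease Casp1, from 6.20 to 23.8 TPM, and the feedback inhibitor Socs3. Those that fell were Jak2, Stat5a, Irak3 and the feedback inhibitors Cish, from 1.51 to 0.41 TPM, and Socs2, from 1.98 to 0.96 TPM. Jak2 and Stat5a act downstream of the IL-3 receptor, and Cish and Socs2 are induced by Stat5. With GATA2 5 rose and 8 fell: Jak2, Stat5a, Irak3, Cish and Socs2 rose, with Cish and Socs2 4.31-fold and 4.28-fold higher (edgeR adjusted p = 0.00162 and 0.000388). Of all genes tested 11.0% rose and 8.23% fell with GATA2. With R307W 4 of the 30 rose and 9 fell, where 1589 of all 15835 genes rose and 7.48% fell. With T354M 3 rose and 10 fell, where 9.26% of all genes rose and 8.11% fell. The shares that rose with either variant, 4 and 3 of 30, were near those over all genes.

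The other 45 genes stayed under 1 TPM in every group, and 14 of them were tested. Il3 and Il9 had no count in any library, as did Il17a, Il17b, Il25, Il1f10 and Il11ra2. A count of 0 allows up to 3 counts, 0.134 CPM (counts scaled to the library total) in the smallest library, and this limit covers counting error only. Il2ra, the alpha chain of the IL-2 receptor, was called as higher with GATA2 than with the empty vector, at 0.27 ± 0.17 against 0.0375 ± 0.0359 TPM, 3.27 (SE 0.61, edgeR adjusted p = 0.00104), and as lower with T354M than with GATA2, -2.95 (SE 0.58, adjusted p = 0.00223). Il27ra, an IL-27 receptor chain, was lower with T354M than with GATA2, at 0.34 ± 0.13 against 0.96 ± 0.27 TPM, -1.53 (SE 0.36, edgeR adjusted p = 0.00877). Il2rb, a chain of the receptors for IL-2 and IL-15, and Il17re, the IL-17C receptor chain, were called as higher on enhancer loss, at 0.44 ± 0.28 against 0.12 ± 0.0238 TPM and 0.27 ± 0.0794 against 0.09 ± 0.0316 TPM. The Il2rb call ended without empty-vector replicate 1 (adjusted p 0.089), and that of Il17re ended without wild-type replicate 1, 2 or 3 or empty-vector replicate 1, 3 or 4 (adjusted p 0.0602 to 0.108) and with no filter on low counts (adjusted p 0.0632). Il2rb was also lower with R307W than with the empty vector, -1.71 (SE 0.56, edgeR adjusted p = 0.0413), a call that ended without empty-vector replicate 1 or 4 or R307W replicate 2, 3 or 4 (adjusted p 0.0682 to 0.166), with only the 8 libraries compared (adjusted p 0.0522), with limma on log2(TPM + 1) (adjusted p 0.0562) and on leaving out replicate 4 of every group (adjusted p 0.0871). Il22ra2, a soluble IL-22 receptor, was higher with T354M than with GATA2, at 0.18 ± 0.0469 against 0.0475 ± 0.0299 TPM, a call that ended without GATA2 replicate 1, 2 or 3 or T354M replicate 1 or 2 (adjusted p 0.0662 to 0.0826) and with no filter on low counts (adjusted p 0.089). Il2ra and Il27ra were also called as higher with GATA2 than in wild-type cells. The Il2ra call ended without wild-type replicate 2 or GATA2 replicate 4 (adjusted p 0.0591 to 0.13), with only the 8 libraries compared (adjusted p 0.0657) and on leaving out replicate 4 of every group (adjusted p 0.155). The Il27ra call ended without wild-type replicate 1, 2 or 4 or GATA2 replicate 1 or 4 (adjusted p 0.0517 to 0.0963) and on leaving out replicate 4 of every group (adjusted p 0.0845). Il33, the ligand of Il1rl1, named after its level was seen, reached at most 0.40 TPM on average in any group.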

How the data were processed

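RNA-seq of cultured fetal liver progenitors gave 20 libraries, made with a NuGEN Ovation kit per the labels. The authors deposited a table per library with expected counts and TPM per gene, from STAR 2.5.2b and RSEM 1.3.0 on mm10 per the submitters' processing notes. The strand setting and the gene annotation are not given in the sources used here. The deposited FPKM values were not used. Identifiers were matched to symbols in GENCODE M21 (GRCm38), for 53274 of 53379. Those without a symbol held at most 0.0148% of a library's counts and were left out. The mitochondrial ribosomal RNA gene mt-Rnr2 took 17.9% to 24.6% of counts.

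Expected counts were rounded to whole numbers, filtered with filterByExpr and scaled by TMM. One quasi-likelihood model in edgeR 4.0.16 (R 4.3.3) with a term per group was fitted to all 20 libraries and 15835 genes, with 15 residual degrees of freedom, and in each of 8 comparisons the p-values of all tested genes were adjusted together (Benjamini-Hochberg). Calls are at an adjusted p under 0.05. Fitting was tested on simulated data. The differences between replicates exceeded counting noise in every group, at 17.2 to 110 times the value that counting alone gives, so no library was counted as a repeat of another. Levels are the deposited TPM, with means and SDs over 4 libraries.

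Alternatives were DESeq2 1.42.0 size factors and its Wald test, no filter on low counts, limma 3.58.1 on log2(TPM + 1), only the 8 libraries compared, each library left out in turn, replicate 4 of every group left out, and the replicate number as a block over all 20 or over the 16 enhancer-null libraries. The number was taken to pair libraries where same-numbered libraries deviated together from their group means with a correlation over 0.1 in every pair. This held for GATA2 against the empty vector (0.12 to 0.30), R307W against GATA2 (0.22 to 0.62), T354M against GATA2 (0.16 to 0.55) and R307W against T354M (0.20 to 0.67), from the data and not from the labels. Block values in the report are from the 16 libraries.

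All genes with at least 1 TPM on average in some group were named, and those called in at least 1 of the first 4 comparisons with a mean of at least 3 TPM in some group are given library by library. The genes, marker lists and signalling list were chosen with earlier results of these data known.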

Additional observations from a re-analysis of the deposited data

Results flagged for a closer look

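In 8 of 145 groups of 4 libraries, 1 library stood apart from the others by Dixon's criterion, which chance meets in about 1 in 20 groups. With R307W this was replicate 4 for 5 genes, at 1.71 TPM for Il13ra1, 3.72 TPM for Il6st, 0.94 TPM for Il6ra, 1.20 TPM for Il21r and 1.32 TPM for Il18, each the lowest of its group. With GATA2 it was replicate 4 for Il15ra, at 2.48 TPM, the lowest, and replicate 1 for Il15, at 22.2 TPM, the highest. In wild-type cells Il18bp was highest in replicate 4, at 2.21 TPM.

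The effect of the vector on Il31ra differed between R307W and T354M, by 3.69 on the log2 scale (edgeR's test of the difference itself, adjusted p = 0.000105), and all 4 libraries with R307W lay above all 4 with T354M. Il31ra reached a mean of 1 TPM with R307W alone, so it was reported only through the group in which it was highest. Its level is also uncertain because it overlaps the pseudogene Gm3226 on the same strand.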

How the results depend on the processing

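Of 107 calls of the 29 genes over the 8 comparisons, 66 held under every alternative run, 41 were lost under at least 1, of which 31 were lost by leaving out 1 library, and none changed direction. Of 10 calls of genes under 1 TPM, 7 were lost, each by leaving out 1 library, and none changed direction. Of the 29 genes, leaving out 1 library gave 21 to 23 calls for enhancer loss, 11 to 18 for GATA2, 12 to 18 for R307W, 9 to 19 for T354M, 3 to 7 for R307W against GATA2, 7 to 9 for T354M against GATA2, 1 to 2 for R307W against T354M and 16 to 17 for GATA2 against wild-type. Limma on log2(TPM + 1) gave 10 for T354M. R307W against GATA2 gave 1 with only the 8 libraries compared and 3 without replicate 4 of every group. R307W against T354M gave 2 with no filter, 2 with the DESeq2 Wald test, 2 with limma and 2 without replicate 4 of every group. The cause was not tested.

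With the replicate block over the 16 enhancer-null libraries R307W against GATA2 gave 10 calls and R307W against T354M 4, and over all 20 libraries the latter gave 3. The number did not pair libraries by the criterion used for enhancer loss (correlations -0.01 to 0.23), R307W (0.02 to 0.31) and T354M (0.06 to 0.31) against the empty vector, or GATA2 against wild-type (-0.08 to 0.15). There 6, 6, 7 and 1 of the 8 libraries lay closest to the library with their own number, a hint from the data only. In the comparisons taken as paired this number was 8 for GATA2 against the empty vector and 7 for R307W against GATA2. It was 6 for T354M against GATA2 and 6 for R307W against T354M. By this measure only GATA2 against wild-type stood clearly apart. The block gave 23 calls for enhancer loss, and over 16 libraries 23 for R307W and 20 for T354M. Over all genes tested these fits gave 7622, 5341 and 4984 calls, against 6859, 2773 and 2751 without the block. Over the 16 it called both variants as lower for Il18 (adjusted p = 0.00522 for R307W and 0.0054 for T354M), Il13ra1 (0.00755 and 0.00395) and Il6ra (0.00356 and 0.00726), and T354M for Il1f9 (0.0206). For R307W it also added Il15ra (0.00346), Il1rn (0.00175) and Il12rb1 (0.0477) as lower and Il18rap (0.0138) as higher. Beyond the calls named with the results, it changed none in the paired comparisons.

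Counts over all genes moved as well. Across alternatives that moved them by over 1.5 times, they reached 1574 to 5258 in place of 3042 for GATA2, 1276 to 5341 in place of 2773 for R307W, 1401 to 4984 in place of 2751 for T354M, 117 to 637 in place of 274 for R307W against GATA2, 979 to 2893 in place of 1583 for T354M against GATA2 and 250 to 1319 in place of 553 for R307W against T354M. The lowest came on leaving out replicate 4 of the vector (of GATA2 for T354M against GATA2) or from only the 8 libraries compared, and the highest from the block over 16 libraries.

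Receptor genes at few counts, such as Il31ra at 8 to 26 counts a library in both empty-vector groups, are limited by depth.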
